A study of Mus musculus with 2 samples.

Results

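The X-linked cluster of miR-322, miR-503, miR-351, miR-542 and miR-450 is a run of 7 microRNA (miRNA) hairpin genes on the minus strand of the mouse X chromosome: Mir322, Mir503, Mir351, Mir542, Mir450-2, Mir450-1 and Mir450b. The members were picked by name and position in the GENCODE M21 annotation, and are 7 of the 2202 miRNA genes in the deposited count tables. They were proposed with the values of both libraries known, so every difference between the libraries is given here as a description, with no test. The small RNA (under 30 nt) was taken from left cerebral cortex of B6CASTF1/J males, F1 animals of the C57BL/6J and CAST/EiJ strains, at 4 days of age. The animals carry no stated treatment or engineered allele and make up 1 group with 2 libraries, called R2 and R1 here after the biological replicate numbers in their labels. The labels number the males separately, yet name the same donor for R2 and R1. The spread between the libraries is therefore not shown to be a spread between animals.

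The cluster is thought to be transcribed as a unit and is cut into hairpins, each of which gives a miRNA of about the same length. Mature miRNAs find their target messages mainly through the seed, the bases near the 5′ end. In mouse myoblasts, miR-322 (miR-424 in human) and miR-503 increase as the cells leave the cell cycle and fuse into muscle fibres, and they repress the cell cycle phosphatase Cdc25a. miR-351 has been described in the same cells as a regulator of the cell cycle factor E2f3. The miR-15/16 family, which shares its seed with miR-322, is known for restraining cyclins, and the miR-125 family, which shares its seed with miR-351, is abundant in the developing brain.

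The mature sequences show which members can be grouped by seed. They are from RefSeq on GRCm38.p6, which holds mature entries for all 7 members, and are written 5′ to 3′ with the seed (bases 2 to 8) in capitals.
miR-322-5p: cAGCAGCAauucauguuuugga
miR-503-5p: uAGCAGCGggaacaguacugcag
miR-351-5p: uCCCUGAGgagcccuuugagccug
miR-542-3p: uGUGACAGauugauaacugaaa
miR-450a-5p: uUUUGCGAuguguuccuaauau
miR-450b-5p: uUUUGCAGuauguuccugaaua
miR-322-5p and miR-503-5p share bases 2 to 7 (AGCAGC), and their seeds differ at base 8. The seed of miR-351-5p is shared with no other member. miR-450a-5p is the same molecule from both Mir450-1 and Mir450-2, and it shares its first 6 bases with miR-450b-5p. The tables count reads per hairpin, so the arms of a hairpin are not separated, and the arm behind each count is not known.

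Genes outside the cluster carry the same seeds. They are shown because they let the cluster be set beside miRNAs with the same kind of seed.
miR-15a-5p: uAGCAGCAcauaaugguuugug
miR-16-5p: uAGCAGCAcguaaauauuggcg
miR-195a-5p: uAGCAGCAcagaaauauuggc
miR-497a-5p: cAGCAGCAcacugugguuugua
miR-125a-5p: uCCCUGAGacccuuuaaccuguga
miR-125b-5p: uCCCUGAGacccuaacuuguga
miR-322-5p shares its first 8 bases with miR-497a-5p. miR-351-5p shares its first 8 bases with miR-125a-5p and miR-125b-5p.

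The cluster spans 6353 nt of mm10, chrX:53047997-53054349, between the protein-coding genes Hprt and Plac1. Mir322 (ENSMUSG00000065418.1) comes first in the direction of transcription, at 53054255 to 53054349. It lies 696 nt beyond the end of the noncoding transcript C430049B03Rik, which is on the same strand. Mir503 (53053984 to 53054054) follows after 200 nt and Mir351 (53053255 to 53053353) after a further 630 nt. A gap of 3767 nt, which holds the long noncoding RNA gene Gm28730, separates Mir351 from Mir542 (53049403 to 53049487). Mir450-2 (53048299 to 53048367), Mir450-1 (53048154 to 53048244) and Mir450b (53047997 to 53048078) close the cluster, with 54 and 75 nt between them. In GENCODE M21 none of the 7 hairpins overlaps another annotated gene (0 of 7), so each is intergenic there.

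R2 held 3577964 reads on the own strand of miRNA genes, and R1 held 2999032. A count of 0 allowed up to 0.838 CPM (the count scaled to these totals, in parts per 1e6) in R2 and 1.00 CPM in R1. Intervals and limits here cover counting error only and may be too narrow, as copies made by amplification are not independent molecules. The libraries stood apart in what they contained. Skeletal muscle miRNAs took 15.7% of counts in R2 and 0.00737% in R1. Nearly all of these were of 1 gene, Mir206, with 559242 of 562170 counts in R2 and 212 of 221 in R1. Neuron miRNAs took 0.131% in R2 and 4.27% in R1, so the cortex label of R2 was not borne out by its markers. No ratio below can be given without either library, since each has 1 library on each side.

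The cluster was far more abundant in R2, and every member was higher there. Summed over its 7 members, it had 113199 counts in R2 and 15091 in R1. That was 3.16% of all miRNA counts (exact 95% binomial interval 3.15 to 3.18) in R2 and 0.503% (0.495 to 0.511) in R1. The ratio was 6.29-fold (95% interval 6.18 to 6.40), or 2.65 on the log2 scale. The mean over both libraries was 18335 ± 18813 CPM (SD, n = 2), so the spread was as large as the level.

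All 7 members had at least 10 counts over both libraries, and 7 of 7 were at least 4-fold higher in R2. Of all 463 genes with that many counts, 14.5% were at least 4-fold higher and 44.3% at least 4-fold lower. The median log2 ratio was 2.63 over the members and -1.67 over all 463 genes, with a count of 0 set to 3. Relative to that median, the summed cluster lay 4.32 higher on the log2 scale. With TMM scaling, which matches the bulk of genes between libraries, all ratios lay 1.40 higher, the 7 members were again at least 4-fold higher, and the share over all genes was 24.2% (23.8% lower). Among genes with at least 1000 counts, a limit set after the values were seen, 23.1% were at least 4-fold higher, beside 5 of 5 members that deep. These shares are background, since this contrast was known when the members were proposed.

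**Figure D1:**
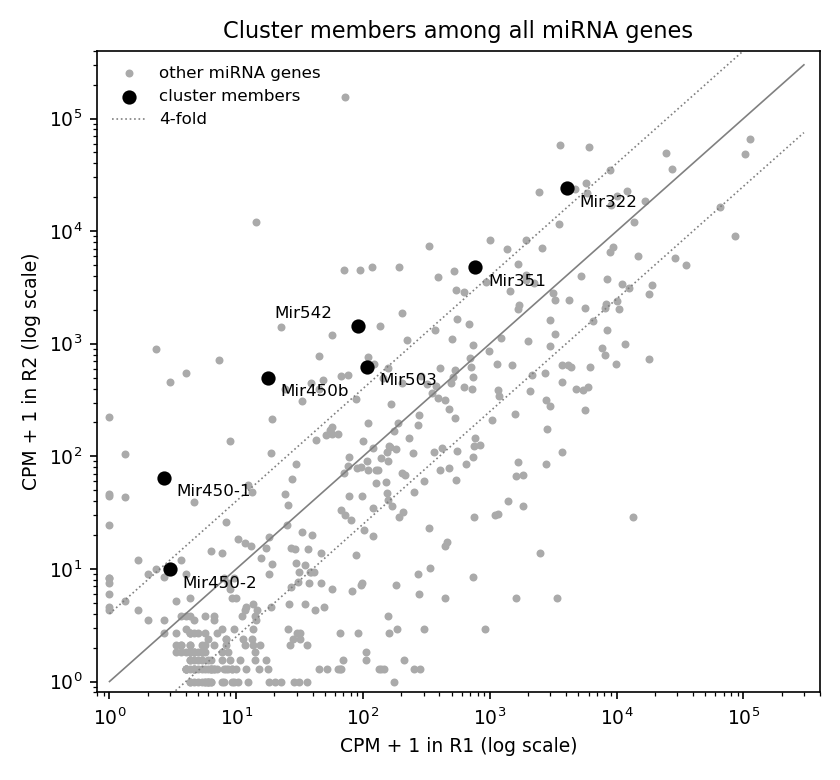
Each point is a miRNA gene with at least 10 counts over both libraries, with its CPM plus 1 in R2 on the vertical axis and in R1 on the horizontal axis (log scales). Of the 7 cluster members (black), 6 lie above the upper dotted 4-fold line and Mir450-2 lies below it with the 1 CPM added; they run from Mir450-2 at 8.94 and 2.00 CPM to Mir322 at 24265 and 4046 CPM.

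Mir322, the first hairpin and the bulk of the cluster, had 86819 counts (24265 CPM, exact 95% Poisson interval 24104 to 24427) in R2. It had 12134 counts (4046 CPM, 3974 to 4119) in R1. It ranked 10 of all miRNA genes in R2 and 49 in R1, and the ratio was 6.0-fold (5.88 to 6.11). Mir503, which lies next to it and shares bases 2 to 7 of its seed, had 624 CPM (2234 counts) in R2 and 107 CPM (321 counts) in R1. The Mir503 ratio was 5.83-fold (5.19 to 6.58). Mir351, the member with the miR-125 seed, had 4755 CPM (17014 counts) in R2 and 769 CPM (2305 counts) in R1. Its ratio was 6.19-fold (5.92 to 6.46). The counting intervals of these 3 ratios overlapped one another.

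Mir542, the first hairpin after the long gap, had a larger ratio than the hairpins before it. It had 1423 CPM (5091 counts) in R2 and 90.0 CPM (270 counts) in R1, a 15.8-fold ratio (14.0 to 17.9). Mir450b, the last hairpin, had 498 CPM (1781 counts) in R2 and 16.7 CPM (50 counts) in R1. Its ratio was 29.9-fold (22.5 to 40.4), and the intervals of Mir542 and Mir450b lay above those of Mir322, Mir503 and Mir351.

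Mir450-1 had 228 counts (63.7 CPM) in R2 and 5 counts (1.67 CPM) in R1, a ratio of 38.2-fold with an interval from 16.1 to 119. Mir450-2 had 32 counts (8.94 CPM) in R2 and 6 counts (2.00 CPM) in R1. That is a ratio of 4.47-fold with an interval from 1.84 to 13.1, so a ratio under 4-fold lies inside its counting error.

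**Figure D2:**
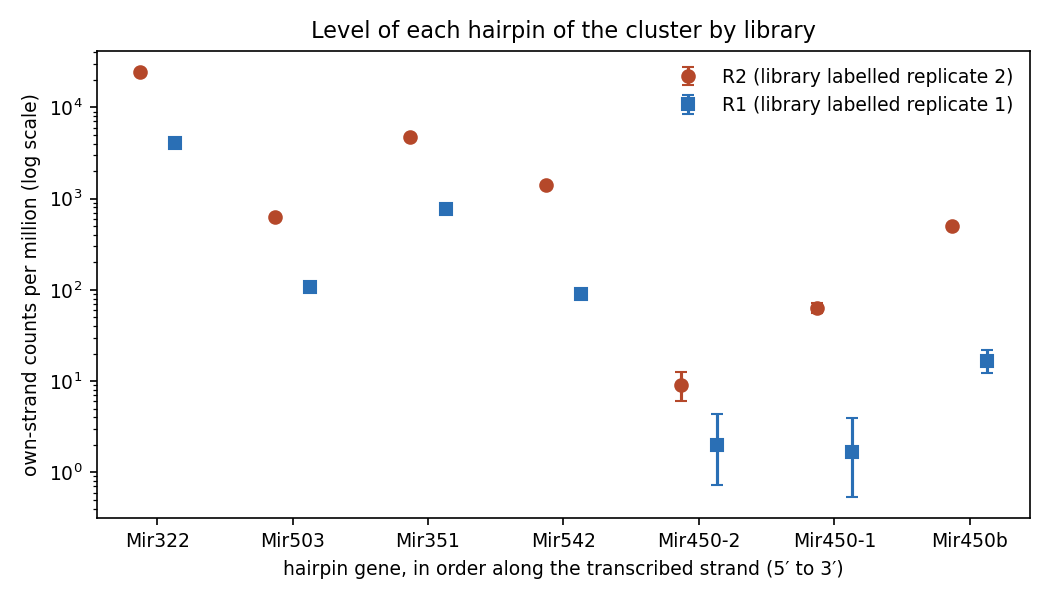
Own-strand CPM (log scale) of each hairpin gene, in order along the transcribed strand, in R2 (circles) and R1 (squares). Bars are exact 95% Poisson intervals, and every circle lies above its square, with Mir322 highest in both libraries.

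The counts of the Mir450 genes have a limit not found for the other members in a search of annotated miRNA genes. The rest of the genome was not searched. The Mir450 hairpins are shown with shared runs in capitals, since a read wholly within such a run cannot be placed at a single site. In Mir450-2 and Mir450-1 the capitals are the longest run common to both, and in Mir450b the longest run common with Mir450-1.
Mir450-2 (mm10 chrX:53048299-53048367, minus strand): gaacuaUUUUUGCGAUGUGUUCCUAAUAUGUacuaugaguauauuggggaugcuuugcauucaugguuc
Mir450-1 (mm10 chrX:53048154-53048244, minus strand): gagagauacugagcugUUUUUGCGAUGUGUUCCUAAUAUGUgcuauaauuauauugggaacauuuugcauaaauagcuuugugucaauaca
Mir450b (mm10 chrX:53047997-53048078, minus strand): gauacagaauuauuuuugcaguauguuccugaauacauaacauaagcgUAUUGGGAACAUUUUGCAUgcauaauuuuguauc
The run shared by Mir450-2 and Mir450-1 is 25 nt long and holds the whole 22-nt miR-450a-5p. A read that maps to more than 1 site is counted for no gene in these tables, so the counts of Mir450-1 and Mir450-2 can leave out miR-450a-5p and are uncertain. Mir450b shares 19 nt with Mir450-1, in the 3′ arm, and 9 nt at most with Mir450-2. That 19-nt run is shorter than the mature products of Mir450b, which are 22 nt long. In the GENCODE M21 hairpin sequences, which include Mir351, the longest run that Mir322, Mir503, Mir351 or Mir542 shares with any other annotated miRNA gene is 11 to 13 nt. Reads placed at several sites were 39.8% of R2 and 46.1% of R1.

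Within each library the hairpins differed by more than counting error at most steps. CPM were not divided by length, since the mature products are 21 to 24 nt long. In R2 the order was Mir322, Mir351, Mir542, Mir503, Mir450b, Mir450-1 and Mir450-2. In R1 Mir503 stood above Mir542 and Mir450-2 above Mir450-1, but the Poisson intervals overlapped in both cases (95.6 to 119 CPM for Mir503 and 79.6 to 101 CPM for Mir542). Over both libraries, the ranges of neighbours in the order of mean level overlapped for 6 of 6 neighbouring pairs. Mir503, the second hairpin, was 38.9 times lower than Mir322 in R2 and 37.8 times lower in R1. Level did not follow position along the transcript. Mir351, the third hairpin, was 7.62 times higher than Mir503 in R2 and 7.18 times higher in R1.

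The make-up of the cluster does not depend on how the libraries are scaled. Mir322 made up 76.7% of the cluster's counts (exact 95% binomial interval 76.4 to 76.9) in R2 and 80.4% (79.8 to 81.0) in R1. Mir351 made up 15.03% (14.8 to 15.2) in R2 and 15.27% (14.7 to 15.9) in R1. Mir503 made up 1.97% (1.89 to 2.06) in R2 and 2.13% (1.90 to 2.37) in R1. The intervals of Mir351 and of Mir503 overlapped between the libraries. Mir351 thus stood at 0.196 reads per Mir322 read in R2 and 0.190 in R1.

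As a sum, the hairpins after the gap took a larger part of the cluster in R2, but Mir450-2 did not. Mir542 made up 4.50% (4.38 to 4.62) there and 1.79% (1.58 to 2.01) in R1. Mir450b made up 1.57% (1.502 to 1.648) in R2 and 0.331% (0.246 to 0.437) in R1. Mir450-1 made up 0.201% (0.176 to 0.229) in R2 and 0.0331% (0.0108 to 0.0773) in R1. Mir450-2 made up 0.0283% (0.0193 to 0.0399) in R2 and 0.0398% (0.0146 to 0.0865) in R1, with overlapping intervals. Together, the last 4 hairpins made up 6.30% (6.16 to 6.44) in R2 and 2.19% (1.97 to 2.44) in R1. The last 4 hairpins as a sum were 18.1-fold higher in R2 (16.2 to 20.2), beside 6.02-fold (5.92 to 6.13) for the first 3.

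**Figure D3:**
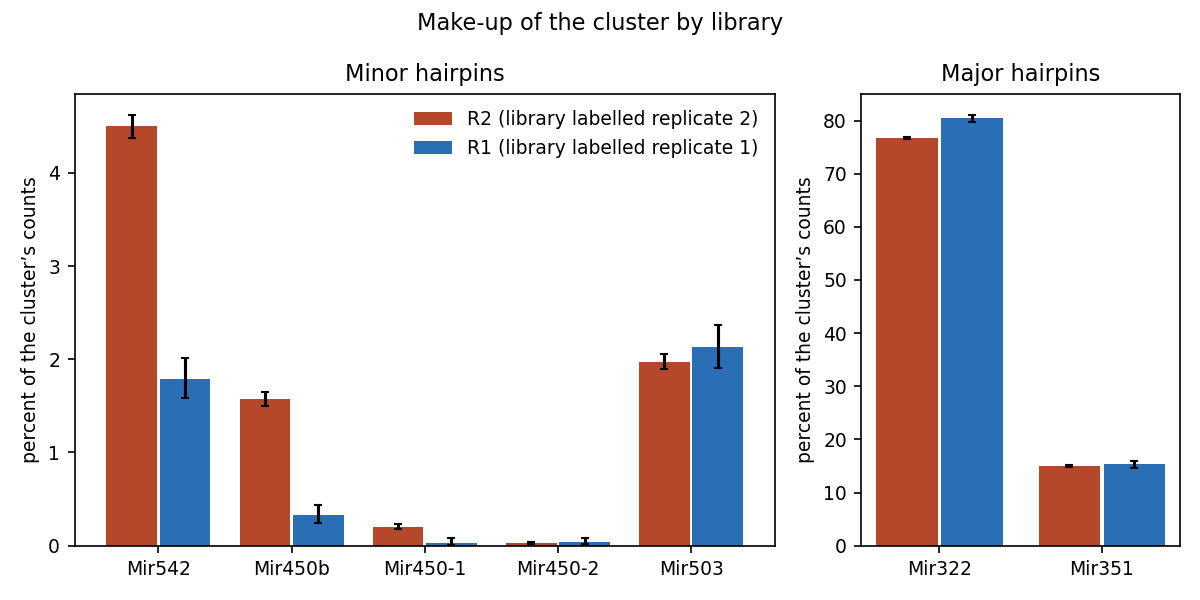
Percent of the cluster's counts held by each hairpin in R2 (left bar of each pair) and R1 (right bar), with exact 95% binomial intervals and a separate scale for the major hairpins. Mir542 holds 4.50% and 1.79%, while Mir351 holds 15.03% and 15.27%.

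**Figure D4:**
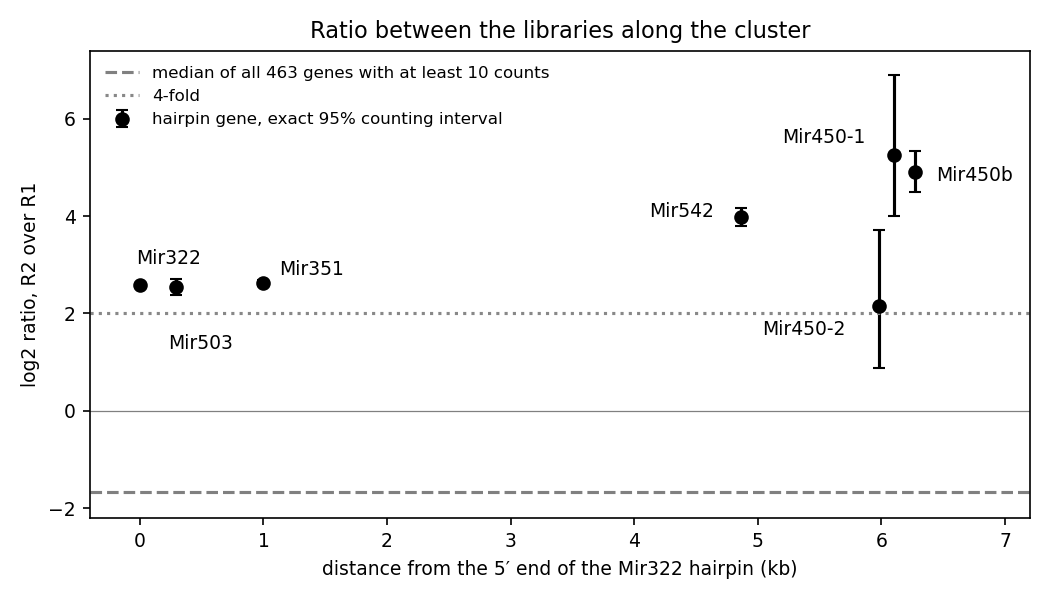
Log2 ratio of CPM, R2 over R1, against distance from the 5′ end of the Mir322 hairpin in kb, with exact 95% counting intervals; the dotted line marks 4-fold and the dashed line the median of all 463 genes (-1.67). The first 3 hairpins lie between 2.54 and 2.63, and Mir542, Mir450-1 and Mir450b lie between 3.98 and 5.26, while Mir450-2 lies below the first 3 at 2.16 (0.88 to 3.71).

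Other adjacent miRNA genes give a scale for these steps. Genes with under 100 counts over both libraries were left out first, so such a gene can lie between the genes of a pair. Outside the cluster, 93 pairs of the remaining miRNA genes were adjacent on 1 strand within 10 kb. Their log2 ratios, with a count of 0 set to 3, differed by a median of 1.27 (quartiles 0.73 and 2.24). Mir322 and Mir503 differed by 0.04, and Mir503 and Mir351 by 0.08. Mir351 and Mir542 differed by 1.35, and 42 of the 93 pairs (45.2%) differed at least as much. This comparison was chosen after the values were seen. Its pairs share libraries and many share clusters, and the depth of a gene and its sequence copies also enter it.

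By total counts, genes outside the cluster with a miR-15/16 seed were within 4-fold between the libraries, where Mir322 and Mir503 were not. Of the 8 listed genes in the annotation, 6 had at least 10 counts, and 0 of 6 were at least 4-fold higher or lower in R2. Of all 463 genes, 14.5% were at least 4-fold higher and 44.3% at least 4-fold lower. With TMM 1 of the 6 listed genes, Mir497, was at least 4-fold higher, beside 24.2% of all genes. Their direction depended on the scaling, with 2 of 6 higher in R2 by total counts and 5 of 6 with TMM. The median log2 ratio was -0.58, or 0.82 with TMM. Mir15a had 968 CPM in R2 and 736 CPM in R1. Mir497, the gene whose mature product shares its first 8 bases with miR-322-5p, had 612 CPM in R2 and 401 CPM in R1. Mir16-1 had 117 CPM in R2 and 420 CPM in R1. The other tested genes, Mir15b, Mir195a and Mir16-2, had log2 ratios of -0.56, -0.60 and -1.37. Mir195b and Mir497b were at 0 in both libraries, and the mature product of Mir497b in RefSeq does not hold this seed.

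Mir322 and Mir503 made up most of the counts of genes with AGCAGC at bases 2 to 7 in both libraries, and more in R2. They held 90.3% of the counts of this class (these members and the listed genes) (exact 95% interval 90.1 to 90.5) in R2 and 57.5% (56.8 to 58.1) in R1. miR-16-5p comes from both Mir16-1 and Mir16-2, so its reads can be lost to several sites. The shares above may therefore be too high. Without the Mir16 genes the shares were 90.9% in R2 and 62.4% in R1. Leaving genes out of the class can only raise the share, so these values do not make up for lost reads. The summed level of this class was 27561 CPM in R2 and 7228 CPM in R1. The list genes alone had 2671 CPM in R2 and 3075 CPM in R1. Mir6342, Mir6353 and Mir6419, whose RefSeq products also hold this seed, were at 0 in both libraries.

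The 3 miR-125 genes had lower values in R2, as did many genes there. By total counts 2 of the 3 were at least 4-fold lower and 0 at least 4-fold higher in R2, beside 44.3% of all 463 genes at least 4-fold lower. With TMM 1 of the 3 was at least 4-fold lower, beside 23.8% of all genes. Mir125b-1 had 399 CPM in R2 and 4768 CPM in R1, and Mir125b-2 had 122 CPM in R2 and 742 CPM in R1. Mir125a had 2086 CPM in R2 and 5593 CPM in R1, a log2 ratio of -1.42 with total counts and -0.02 with TMM. Mir351 held 64.6% (64.0 to 65.2) of the counts of Mir351 and the miR-125 genes in R2 and 6.47% (6.22 to 6.73) in R1. miR-125b-5p is the same molecule from both Mir125b-1 and Mir125b-2, so its reads can be lost to several sites. The levels of these Mir125b genes may thus be too low and the shares of Mir351 too high. Beside Mir125a alone, whose mature product has no copy among these genes, Mir351 held 69.5% in R2 and 12.1% in R1. The summed level of Mir351 and the miR-125 genes was 7362 CPM in R2 and 11872 CPM in R1.

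**Figure D5:**
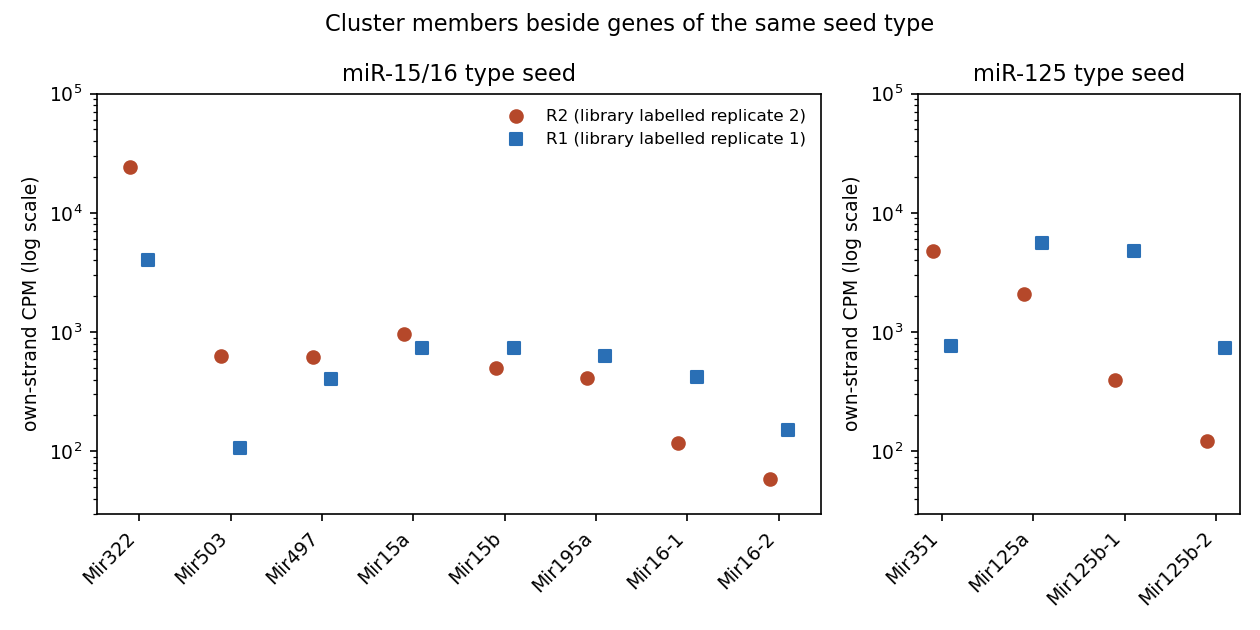
Own-strand CPM (log scale) of cluster members beside genes of the same seed type, in R2 (circles) and R1 (squares). Mir322, Mir503 and Mir351 have the circle above the square by 5.83-fold to 6.19-fold, while Mir125b-1 has 399 and 4768 CPM.

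Of 135 other miRNA genes of the X chromosome, 34 had at least 10 counts, of which 3 (Mir224, Mir362 and Mir500) were at least 4-fold higher (8.82%, beside 14.5% of all 463 genes) and 15 at least 4-fold lower in R2 (44.1%, beside 44.3%). With TMM 8 were higher (23.5%, beside 24.2%) and 11 lower (32.4%, beside 23.8%), and their log2 ratios had a median of -1.35 (0.05 with TMM). The nearest miRNA genes downstream, 305 kb and 306 kb away, were Mir106a and Mir18b of the miR-106a-363 cluster. Mir106a had 45.3 CPM in R2 and 23.3 CPM in R1, and Mir18b had 3 and 1 counts in these libraries. The nearest upstream, Gm22103 and Mir5116, lie 3016 kb or more away and were at 0 in both.

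The genes with a ratio most like that of the summed cluster, among 289 others with at least 100 counts, were Mir362, Mir136, Mir154, Mir495 and Mir500. Likeness was the difference of log2 ratios (total counts) over 2 libraries, and it was 0.07, 0.17, 0.17, 0.18 and 0.22 for these genes in turn. Mir362 had 106 CPM in R2 and 17.7 CPM in R1. Mir362 and Mir500 lie on the X chromosome, and Mir136, Mir154 and Mir495 on chromosome 12. With 2 libraries a ratio is the whole pattern, so many genes can match it.

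Markers of other cell types moved with the cluster. In the skeletal muscle list, 6 of 7 tested genes were at least 4-fold higher in R2, beside 14.5% of all 463 genes. With TMM 7 of 7 were, beside 24.2% of all genes. Of the 10 listed genes, 6 were at 0 in R1, as were most miRNA genes there. All genes at 0 in R1 shared rank 694 of 2202. The 6 listed genes were Mir1a-1, Mir1a-2, Mir133a-1, Mir133a-2, Mir208a and Mir208b. Of these, Mir133a-2 was also at 0 in R2. A read shared by gene copies, such as Mir1a-1 and Mir1a-2, would count for neither, so a count of 0 there need not mean absence. Mir206, the skeletal muscle miRNA that leads this list, had 156302 CPM in R2 and 70.7 CPM in R1. With Mir206 left out of the totals, an alternative chosen after the values were seen, the cluster's ratio was 7.45-fold. The mesenchymal and smooth muscle list took 2.90% of counts in R2 and 0.523% in R1. In it 4 of 5 tested genes were at least 4-fold higher, beside 14.5% of all genes. Mir143 held 84860 of this list's 103783 counts in R2, and had 23717 CPM in R2 and 4733 CPM in R1. Mir214 had 4790 CPM in R2 and 116 CPM in R1, while Mir145a had 417 CPM in R2 and 375 CPM in R1. The red blood cell list took 0.00682% in R2 and 0.00167% in R1. In it 1 of 2 genes was at least 4-fold higher, beside the same 14.5%.

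In the neuron list 9 of 9 tested genes were at least 4-fold lower in R2, beside 44.3% of all genes. Mir124a-1, Mir124a-2, Mir124a-3 and Mir9-2 were not among these 9, with 0 counts each in R2 and 8, 3, 1 and 7 counts in R1. A read shared by copies of a miRNA gene would count for none of them. The sequences of these copies were not compared here, so their low counts need not mean a low level. The part of these other cell types in the cluster's values was not tested. In bulk libraries, more cells of a type and more RNA per cell cannot be told apart.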

How the data were processed

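R2 and R1 are the libraries labelled biological replicates 2 and 1. Per the text that the authors deposited beside them, the tables are on mm10 with GENCODE M21. The values the authors deposited are raw counts of reads per miRNA gene, 1 library to a table. For the aligner and the counter, the sources used here give no name. Column order (unstranded, own strand, opposite strand) and the leading entries match STAR output, where a read at several sites counts for no gene. The own-strand column was used, as CPM of its total over miRNA genes. Entries without a gene stayed out of the totals: reads at several sites, unplaced reads and reads outside miRNA genes were 39.8%, 6.11% and 1.47% of R2, and 46.1%, 18.4% and 5.55% of R1. On the opposite strand all 7 members had 0 counts in both libraries.

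Symbols and coordinates came from GENCODE M21, with all 2202 identifiers matched. Ratios are R2 over R1 with no prior. Intervals are exact (Clopper-Pearson binomial, or Poisson for a level) at 95%. With 1 library on each side the edgeR quasi-likelihood test has no residual degrees of freedom, so no test was run, and no p-value is given. A gene counted as called when at least 4-fold apart, among genes with at least 10 counts summed. The members, lists and rules were chosen with earlier results of these data known. Named genes were the members, the genes of both seed families, the 2 nearest miRNA genes on each side and the 5 genes nearest in ratio; others named are list examples. The comparison of adjacent pairs and the search for shared runs were added with the values already seen. The ratio and its interval were tested on simulated Poisson counts from a shared profile. Such counts hold no amplification copies, so this checks the computation and not whether the intervals are wide enough for these libraries. Alternatives were TMM (edgeR), DESeq2 size factors, totals without Mirlet7i or Mir206, unstranded counts, other filters, 2-fold, a prior of 1 CPM, subsets of members and each library alone. Tools were Python 3.11.15 (with pandas 2.3.3, numpy 2.4.6, matplotlib 3.10.9, scipy 1.17.1) and R 4.3.3 (with DESeq2 1.42.0, edgeR 4.0.16).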

Additional observations from a re-analysis of the deposited data

How the results depend on the processing

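The summed cluster was higher in R2 under all alternatives run. Its log2 ratio of 2.65 became 4.06 with TMM, 3.91 with DESeq2 size factors, 2.58 with totals without Mirlet7i, 2.90 with totals without Mir206, 2.75 with unstranded counts and 2.90 without Mir322. Without Mir450-1 and Mir450-2 it was 2.65. The number of members called higher (4-fold, or 2-fold in 1 setting) was 5 to 7, always all the members left by the filter or subset. Beside it, the share of all genes called higher moved from 9.1% (at least 1 count) to 24.2% (TMM). It was 18.3% at 100 counts or more and 21.6% at 2-fold. The prior of 1 CPM was not among the settings for the number of members called. With that prior 6 of 7 members were at least 4-fold higher, and the share over all genes was not computed. Of 35 alternative values for single members, 0 reversed, 14 left the counting interval and 12 of these were higher; all lay between 1.73 and 6.66. With a prior of 1 CPM, Mir450-2 had the lowest, 1.73, under 4-fold. The cluster's mean of 18335 CPM was 5032 to 31638 CPM when each library was left out in turn. No paired analysis was possible because both libraries belong to 1 group. Depth limits Mir450-1 and Mir450-2, with 5 and 6 counts in R1.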
